A study of Mus musculus with 6 samples.

Results

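Of 15388 genes in the table, 10 genes of the machinery that builds branched actin filaments were followed. They were chosen by symbol as a set of forms known from the blood lineage, namely Was, Nckap1l, Arpc1b, Dock2 and Dock8, and a set of broadly expressed or neural paralogs, namely Wasl, Wasf1, Wasf2, Nckap1 and Arpc1a. All 10 were found in the table, and each had over 20 scaled reads (reads over the library's size factor) in the 3 libraries of at least 1 fraction. Was passed this filter only through its Positive libraries, and the other 9 had over 20 scaled reads in every library.

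Branched actin is made by the Arp2/3 complex, which starts a new filament on the side of an existing one and stays inactive until a nucleation promoting factor switches it on. WASP (Was) and N-WASP (Wasl) are switched on by the GTPase CDC42, and the WAVE proteins (Wasf1 and Wasf2) work inside a multi-subunit complex that answers to RAC and holds HEM1 (Nckap1l) or NAP1 (Nckap1). DOCK2 and DOCK8 are exchange factors that load RAC and CDC42 with GTP. Microglia, the resident macrophages of the brain, move their processes and engulf material by means of actin, and loss of WASP, HEM1, ARPC1B, DOCK2 or DOCK8 in people is known from inherited immune diseases.

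RNA came from the hippocampus of 3 mice, numbered 201, 207 and 208, each giving 1 Input and 1 Positive library. Every mouse carried Cx3cr1-cre/ERT2 and NuTRAP and had received tamoxifen at about 3 months of age, so both fractions share genotype, treatment and animal, and no animal without Cre entered the comparison. The Cx3cr1 promoter drives the inducible Cre, which lets recombined cells put GFP on their ribosomes. This promoter is active in border macrophages and other myeloid cells as well as in microglia. For this line the paper delayed brain collection by some weeks after tamoxifen, with the aim of leaving circulating monocytes unlabelled. Input was the cleared homogenate of all hippocampal cells, and Positive was the RNA of ribosomes held by anti-GFP antibody on beads. The estimated counts of the genes in the table summed to 14879734 to 17757918 per library. All 10 microglia markers on the list used were higher in Positive, with a median log2 fold change of 4.66, and all 10 oligodendrocyte markers were lower, with a median of -2.58.

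The start regions of the genes are shown first, because the blood-lineage forms moved together between the fractions and their promoters can be read beside those of the paralogs. Of the 10 genes, 8 had a window in RefSeq (GRCm38.p6) that runs from 250 bases before to 50 bases after the gene start, and windows for Nckap1 and Nckap1l were not analysed here. The windows were searched for GAGGAA on both strands, the core of many sites of the myeloid factor PU.1. In the sequences, which are written along the strand of the gene, capitals mark GAGGAA or its reverse complement TTCCTC. Was and Wasl, Arpc1b and Arpc1a are shown as paralog pairs, and Dock2 because its window held the motif more than once.

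Was, chrX:8090442-8090741, minus strand: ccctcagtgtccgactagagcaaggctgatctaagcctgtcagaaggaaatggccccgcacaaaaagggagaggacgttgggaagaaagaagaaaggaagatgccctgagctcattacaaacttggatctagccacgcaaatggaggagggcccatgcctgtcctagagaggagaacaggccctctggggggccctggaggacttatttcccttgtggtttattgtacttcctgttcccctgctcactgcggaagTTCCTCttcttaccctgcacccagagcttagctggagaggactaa

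Wasl, chr6:24664946-24665245, minus strand: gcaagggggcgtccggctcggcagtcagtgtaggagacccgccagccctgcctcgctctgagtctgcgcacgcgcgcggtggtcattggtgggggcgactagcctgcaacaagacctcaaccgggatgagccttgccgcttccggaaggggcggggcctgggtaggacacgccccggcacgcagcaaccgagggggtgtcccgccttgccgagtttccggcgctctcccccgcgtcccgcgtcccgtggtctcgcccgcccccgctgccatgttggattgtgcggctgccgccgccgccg

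Arpc1b, chr5:145114006-145114305, plus strand: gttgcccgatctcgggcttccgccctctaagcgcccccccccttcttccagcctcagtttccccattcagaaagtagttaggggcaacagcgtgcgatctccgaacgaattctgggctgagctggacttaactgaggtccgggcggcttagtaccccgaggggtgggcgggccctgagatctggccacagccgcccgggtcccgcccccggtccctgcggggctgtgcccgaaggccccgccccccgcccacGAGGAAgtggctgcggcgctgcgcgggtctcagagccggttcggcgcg

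Arpc1a, chr5:145083619-145083918, plus strand: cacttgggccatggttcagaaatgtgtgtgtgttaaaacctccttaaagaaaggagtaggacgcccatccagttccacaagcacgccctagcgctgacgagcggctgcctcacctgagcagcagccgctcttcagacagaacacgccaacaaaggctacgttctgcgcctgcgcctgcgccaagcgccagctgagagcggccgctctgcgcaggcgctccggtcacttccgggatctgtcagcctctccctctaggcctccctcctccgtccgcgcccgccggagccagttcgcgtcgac

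Dock2, chr11:34783856-34784155, minus strand: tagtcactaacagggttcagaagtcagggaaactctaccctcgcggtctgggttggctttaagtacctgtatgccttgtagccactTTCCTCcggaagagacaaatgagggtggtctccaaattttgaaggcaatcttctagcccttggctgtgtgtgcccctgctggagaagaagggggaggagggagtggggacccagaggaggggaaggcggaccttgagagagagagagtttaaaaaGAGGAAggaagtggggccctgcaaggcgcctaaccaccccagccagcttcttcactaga

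GAGGAA was found 1 time in Was, 1 time in Arpc1b and 2 times in Dock2, and not in the windows of Dock8, Wasl, Wasf1, Wasf2 or Arpc1a. Of all 32851 windows, 28.3% held it, so that 3 of 8 windows is a description and marks no site. The Arpc1b match reads on as GAGGAAGT, a longer word that contains the first and was found in 3.20% of all windows. CG dinucleotides numbered 5 in Was and 5 in Dock2, against 29 in Arpc1b, 52 in Dock8, 36 in Wasl, 17 in Wasf1, 29 in Wasf2 and 26 in Arpc1a. The median of all windows was 7, with quartiles of 3 and 20. Was and Dock2 thus lay within the quartiles of all windows, Wasf1 also, and Arpc1b, Dock8, Wasl, Wasf2 and Arpc1a above them.

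The first question was whether the blood-lineage forms and their paralogs differed between the GFP-tagged ribosomes and the whole tissue. All 5 blood-lineage forms were higher in Positive, with log2 fold changes from 2.67 to 5.22 and a median of 4.32. Of the 5 broad or neural paralogs, 2 were higher, Wasf2 by 2.69 and Arpc1a by 0.20, and the median of the 5 was 0.04. In all, 7 of 10 members passed an adjusted p of 0.05 (edgeR quasi-likelihood test, n = 3 libraries per fraction), beside 46% of the 15344 genes tested, and all 7 were higher, beside 24% of genes tested that were higher. The Positive libraries lay wholly above the Input libraries for these 7, which was so for 28.9% of genes tested, while 56.5% had fractions that did not overlap in either direction. A fold change over 5 was met by 6 members, the 5 blood-lineage forms and Wasf2, beside 3.75% of genes tested. Was is in each of these counts although it passed the filter only through its Positive libraries. Over all genes tested the median log2 fold change was -0.012.

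**Figure D1:**
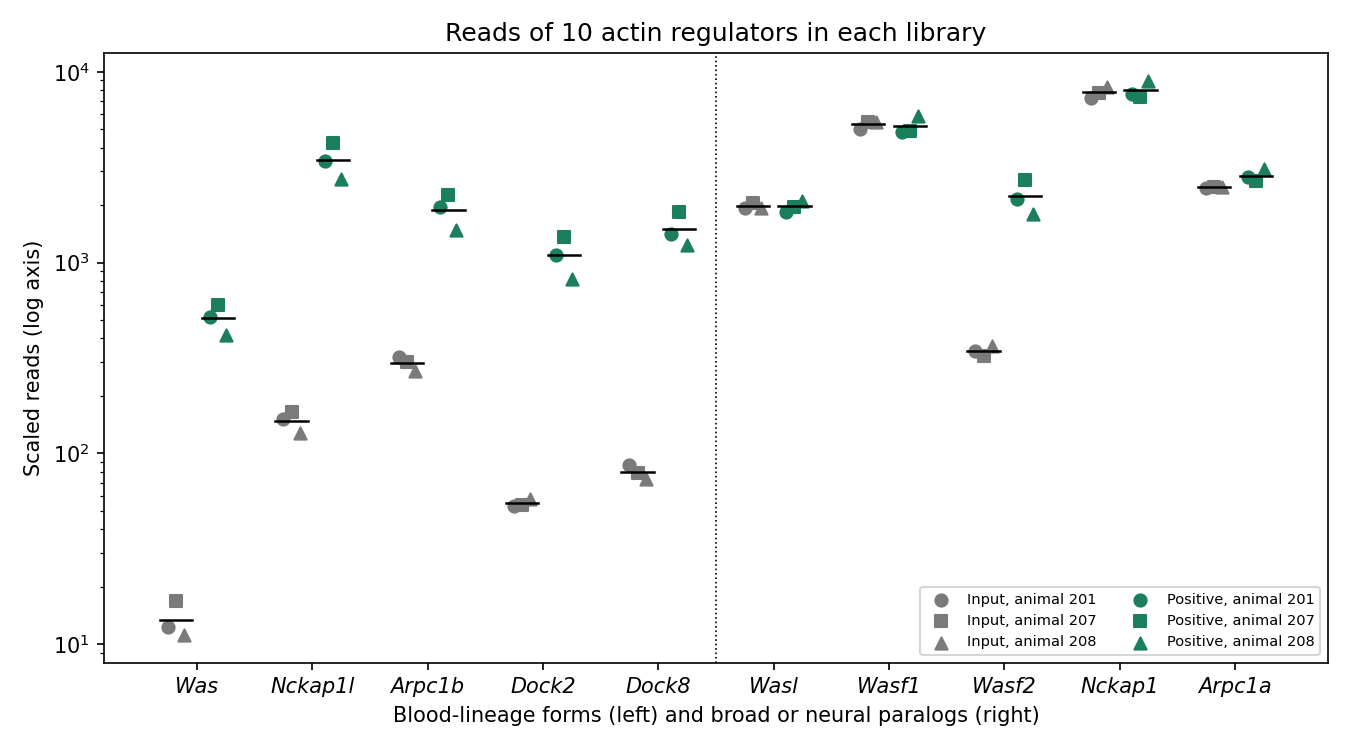
Scaled reads (log axis) of each of the 10 genes in the 3 Input libraries (grey) and the 3 Positive libraries (green), with marker shapes for the animals and bars for the means of 3. The blood-lineage forms on the left and Wasf2 on the right rise between the fractions with no overlap, whereas Wasl, Wasf1 and Nckap1 stay at 1830 to 8972 scaled reads with overlap.

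Among the nucleation promoting factors, WASP stood furthest from its paralog. Was (ENSMUSG00000031165, chromosome X, 8081453 to 8090498, minus strand, GRCm38) had 12.2, 16.7 and 11.2 scaled reads in the Input libraries of animals 201, 207 and 208, and 520.7, 600.4 and 416.1 in their Positive libraries. Every Positive library was far above every Input library, and the Input values rest on only 10.7 to 17.8 reads before scaling. The means were 13.4 ± 2.95 and 512.4 ± 92.5 (SD, n = 3). The log2 fold change was 5.22 ± 0.22 (SE) or 37.2-fold, with an edgeR adjusted p of 9.46e-10. Because Was passed the filter only through Positive, where it is high, the filter favoured this direction and the p is no separate support. The 95% interval of the fit ran from 4.75 to 5.69 on the log2 scale, and the 3 animals gave 5.30, 5.08 and 5.10.

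N-WASP, the form found in nearly every cell type, showed no such difference. Wasl (ENSMUSG00000029684, chromosome 6, 24613805 to 24665009, minus strand) had 1924, 2048 and 1934 scaled reads in Input and 1830, 1964 and 2112 in Positive. The fractions overlapped, with means of 1969 ± 68.4 and 1969 ± 141 (SD, n = 3). The log2 fold change had a 95% interval of -0.17 to 0.17 and an edgeR adjusted p of 0.999, and its sign changed with scaling and with the libraries used. Within a library, the log2 ratio of Was to Wasl was 5.16 ± 0.20 higher in Positive than in Input (SD over 3 animals).

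The WAVE proteins were split between the fractions although the rule put both among the broad or neural paralogs. Wasf2 encodes WAVE2, the form of most motile cells (ENSMUSG00000028868, chromosome 4, 133130505 to 133199756, plus strand), and had 343.8, 325.1 and 364 scaled reads in Input against 2157, 2712 and 1791 in Positive. The fractions did not overlap, and the log2 fold change was 2.69 ± 0.14 (SE), or 6.45-fold, with an edgeR adjusted p of 5.54e-09. Wasf1 encodes WAVE1, which is abundant in neurons (ENSMUSG00000019831, chromosome 10, 40883475 to 40938570, plus strand), and had 5011, 5479 and 5442 scaled reads in Input against 4855, 4899 and 5890 in Positive. Its fractions overlapped, and the log2 fold change was -0.03 ± 0.09 (SE) with an edgeR adjusted p of 0.835 and a 95% interval of -0.22 to 0.17.

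For the scaffold subunit that WAVE needs, the blood-lineage form and the broad form also parted. Nckap1l encodes HEM1 (ENSMUSG00000022488, chromosome 15, 103453825 to 103498800, plus strand) and had 151.5, 164.3 and 127.4 scaled reads in Input and 3411, 4221 and 2730 in Positive. The lowest Positive library was many times the highest Input library, and the log2 fold change was 4.54 ± 0.16 (SE), or 23.3-fold, with an edgeR adjusted p of 3.46e-10. Nckap1 encodes NAP1 (ENSMUSG00000027002, chromosome 2, 80500512 to 80581380, minus strand) and had 7251, 7779 and 8315 scaled reads in Input and 7603, 7381 and 8972 in Positive. Its fractions overlapped, and its log2 fold change of 0.04 ± 0.09 (SE) had an edgeR adjusted p of 0.776 and a 95% interval of -0.17 to 0.24.

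ARPC1 is the WD-repeat subunit of the Arp2/3 complex, and its 2 genes lie on the same strand of chromosome 5 with 5453 bases between them. Arpc1b (ENSMUSG00000029622, 145114215 to 145130705) had 321.3, 302.6 and 271 scaled reads in Input and 1953, 2256 and 1478 in Positive. All Positive libraries were above all Input libraries, with a log2 fold change of 2.67 ± 0.14 (SE), or 6.36-fold, and an edgeR adjusted p of 9.2e-09. Arpc1b was the blood-lineage form with both the highest Input level and the smallest fold change.

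Arpc1a (ENSMUSG00000029621, 145083830 to 145108761) had 2471, 2487 and 2476 scaled reads in Input and 2791, 2665 and 3093 in Positive. The fractions did not overlap, but the difference was small, with a log2 fold change of 0.20 ± 0.08 (SE), or 1.15-fold, a 95% interval of 0.03 to 0.37 and an edgeR adjusted p of 0.0497. This call did not hold under total count scaling (0.12, edgeR adjusted p 0.205), with DESeq2 (0.20, DESeq2 adjusted p 0.0527) or with limma on the deposited normalized values (0.18, limma adjusted p 0.173). It was also lost without the Input library of animal 201, 207 or 208 and without the Positive library of animal 201 or 208, with edgeR adjusted p values of 0.104, 0.122, 0.136, 0.0698 and 0.11. Arpc1b shares 931 exon bases with Pdap1 and Arpc1a 50 with Kpna7, both on the opposite strand, and the authors counted reads by strand.

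The DOCK genes of the set have no paralog among the members. Dock2, whose product activates RAC in leukocytes (ENSMUSG00000020143, chromosome 11, 34226815 to 34783892, minus strand), had 53, 53.6 and 57.7 scaled reads in Input and 1102, 1356 and 819.7 in Positive. The log2 fold change was 4.32 ± 0.19 (SE), or 19.9-fold, with an edgeR adjusted p of 1.48e-09. Dock8, whose product acts on CDC42 (ENSMUSG00000052085, chromosome 19, 24999529 to 25202432, plus strand), had 86.7, 78.9 and 73.4 scaled reads in Input and 1415, 1841 and 1241 in Positive. Its log2 fold change was 4.23 ± 0.16 (SE), or 18.8-fold, with an edgeR adjusted p of 4.86e-10. Neither gene had overlapping fractions, and the Input values of Dock2 were close to one another while its Positive values spread more widely than those of any other member (a coefficient of variation of 24.6%). Dock2 shares 460 exon bases with the antisense gene 4930403D09Rik.

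The Positive libraries were ordered alike for the 6 members over 5-fold higher, and otherwise for Arpc1a, the remaining member called higher. The library of animal 207 was the highest and that of animal 208 the lowest for Was, Nckap1l, Arpc1b, Dock2, Dock8 and Wasf2, and animal 208 was the highest for Wasl, Wasf1, Nckap1 and Arpc1a. The same library was the lowest of the 3 for 10 of 10 microglia markers and the highest for 9 of 10 neuron markers, and the part of this in the members' values was not tested. Without it the log2 fold changes were 5.35 for Was, 4.69 for Nckap1l, 2.82 for Arpc1b, 4.49 for Dock2, 4.35 for Dock8 and 2.82 for Wasf2, and the count of broad or neural paralogs called was 1, as Arpc1a was at 0.14 and lost its call. In bulk RNA of this kind, fewer cells of a type and less RNA per cell cannot be told apart. The purity of each Positive library was not tested.

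**Figure D2:**
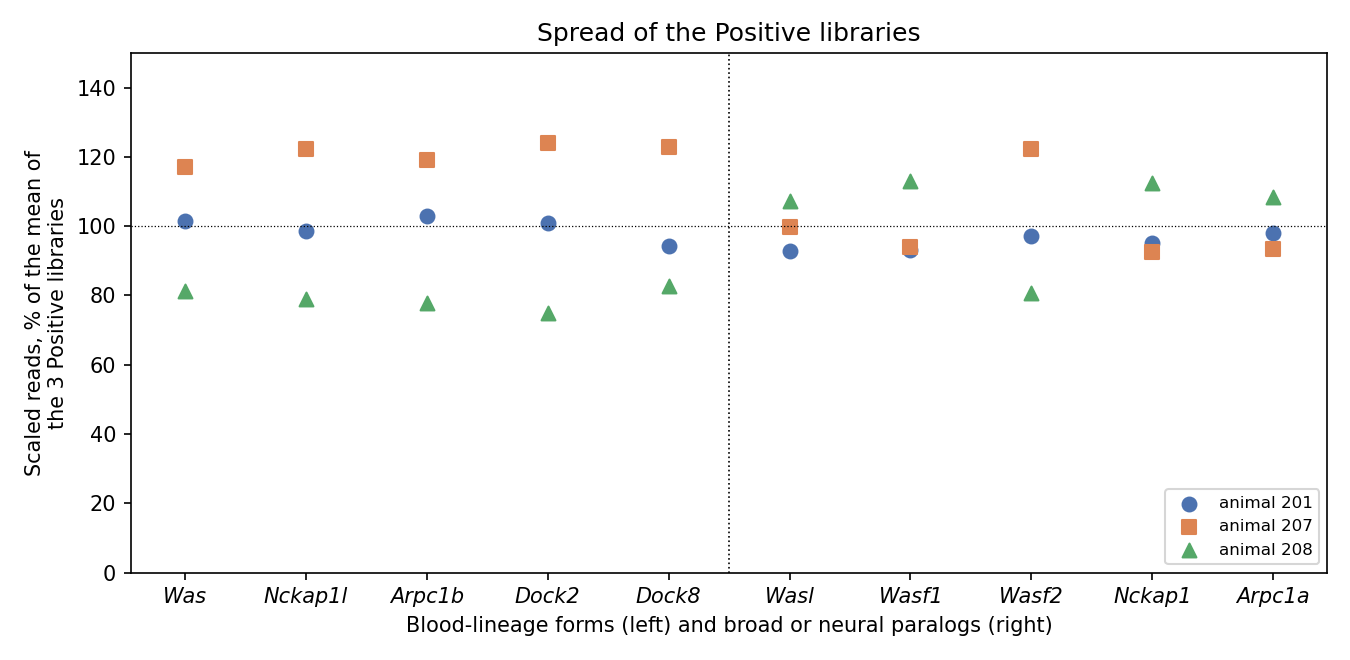
Scaled reads of each member in the 3 Positive libraries as a percentage of their own mean (dotted line at 100%), with colours and shapes for the animals. Animal 208 is the lowest point for 6 members and the highest for 4.

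Set against the microglia markers of the same animal, Was lay above them and the other members at, below or far below them. Was exceeded the median log2 fold change of the 10 markers by 0.51 ± 0.32 (SD, n = 3 animals), and did so in each animal. This excess rests on 10.7 to 17.8 reads of Was in Input, and Was passed the filter only through Positive. Nckap1l was at -0.13 ± 0.14 from it, Dock2 at -0.39 ± 0.19 and Dock8 at -0.45 ± 0.12. Arpc1b and Wasf2 were lower than the markers by similar amounts, at -2.0 ± 0.046 and -1.98 ± 0.11. Arpc1a was at -4.45 ± 0.38, Nckap1 at -4.62 ± 0.37, Wasl at -4.65 ± 0.37 and Wasf1 at -4.68 ± 0.41.

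Markers of other cells that carry the blood-lineage forms were examined beside these values. All 7 border macrophage markers were higher in Positive, with a median log2 fold change of 4.15, and their summed level was 198 to 255 scaled reads in Input and 2645 to 5789 in Positive. Of 12 lymphocyte markers only Cd79b and Ighm were in the table, both higher, at 3.97 and 3.22. Of 9 neutrophil markers Csf3r, higher by 3.35, and Mmp9, at 0.28 with an edgeR adjusted p of 0.398, were in the table. Of 5 monocyte markers Ly6c2 and Ly6c1 were in the table, at 1.61 and 1.94, and Ly6c1 is also an endothelial marker. The border macrophage markers Pf4, Lyve1 and Ms4a7, and Cd79b and Ly6c2, passed the filter only through Positive. The filter thus favoured their direction. In Input, Cd79b had 1.9 to 6.1 scaled reads, Ly6c2 2.1 to 12.2 and Pf4 4.2 to 18.4. The summed microglia markers ran from 5291 to 5636 scaled reads in Input and from 106328 to 156767 in Positive. Neuron markers, which bear on the broad paralogs, had a median of 0.14 with 3 of 10 higher. All 10 endothelial markers were higher, with a median of 1.88 and values of 2.19, 2.15 and 1.09 in animals 201, 207 and 208, and a summed level of 1912 to 2328 scaled reads in Input and 4948 to 10091 in Positive. Of 10 astrocyte markers 1 was higher and 4 lower, with a median of -0.33. How much each cell type gave to the members' reads was not tested.

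The next question was how much of a paralog pair the blood-lineage form made up, which needs levels per length. Reads per kb of the longest principal transcript (GENCODE vM21) were used, and a share is the part of the 2 genes' summed reads per kb. Was made up 1.37% ± 0.25 of the Was and Wasl pair in Input and 34.8% ± 5.22 in Positive (SD, n = 3). Nckap1l went from 1.78% ± 0.30 to 29.1% ± 6.41 of its pair with Nckap1, and Arpc1b from 5.95% ± 0.48 to 25.9% ± 5.43 of its pair with Arpc1a. Wasf2 went from 3.03% ± 0.22 to 17.2% ± 4.16 of its pair with Wasf1. In these pairs Wasl, Nckap1, Arpc1a and Wasf1 therefore kept the larger share of the reads per kb in all 6 libraries. Neuron markers were not depleted in Positive (median log2 fold change 0.14, 0 of 10 lower). The shares thus describe the fractions, and the share within the tagged cells was not tested.

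Dock2 was set beside a relative outside the member list and crossed over. Dock1 belongs to the same subfamily as Dock2. Dock2 made up 12.5% ± 1.62 of the Dock2 and Dock1 pair in Input and 73.3% ± 4.00 in Positive (SD, n = 3). The larger share changed hands in all 3 animals. Dock1 had a log2 fold change of -0.001 with an edgeR adjusted p of 0.995.

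**Figure D3:**
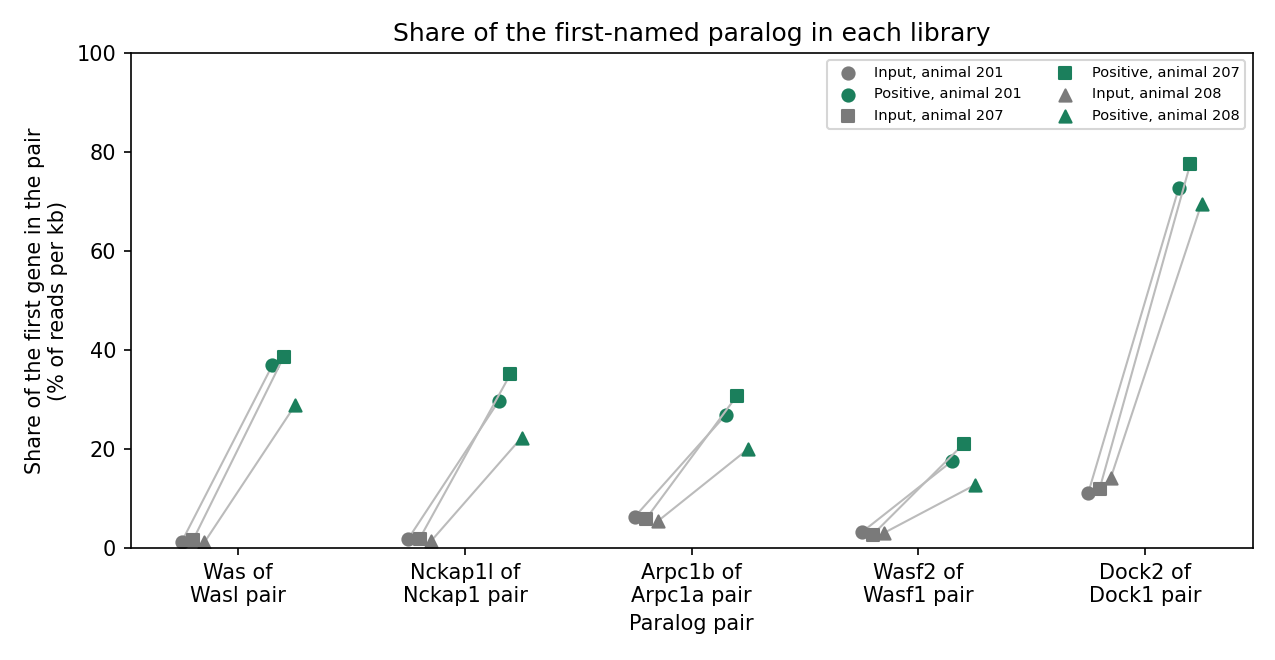
Share of the first-named gene in 5 paralog pairs (% of the pair's reads per kb), with a line from Input (grey) to Positive (green) for each animal. Was, Nckap1l, Arpc1b and Wasf2 reach at most 38.6% in Positive, whereas Dock2 goes from 11.2% to 14.3% in Input up to 69.6% to 77.5% in Positive.

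The log2 ratio of the first to the second gene was tested in 16 pairs, the 4 pairs of members, the DOCK pairs and 10 further pairs of the pathway. It was higher in Positive by 4.49 ± 0.23 for Nckap1l over Nckap1, 2.45 ± 0.34 for Arpc1b over Arpc1a, 2.70 ± 0.52 for Wasf2 over Wasf1 and 4.26 ± 0.46 for Dock2 over Dock1 (SD over 3 animals). In each of the 16 pairs the libraries of the fractions did not overlap and all 3 animals moved up. The pairs and the gene named first in each were set by choice, so this direction is a description. No share over other gene pairs was computed, and 56.5% of single genes tested had fractions that did not overlap. The two-sided exact permutation test over libraries gave p = 0.1 for every pair, the smallest that 3 against 3 allows, and 0.1 after Benjamini-Hochberg adjustment over 16, so the design cannot pass 0.05 here. Within animals, the exact sign-flip test gave 0.25, also its smallest value.

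Among the 10 further pairs the size of the shift varied widely. Hcls1 over Cttn, the leukocyte and the broad form of cortactin, rose by 4.79, and Myo1f over Myo1e, class I myosins, by 4.12. The shift was 3.99 for Abi3 over Abi1, 3.98 for Lcp1 over Pls3, 3.74 for Gmfg over Gmfb and 3.51 for Rac2 over Rac1. It was 3.04 for Vav1 over Vav2 and 2.72 for Arhgdib over Arhgdia. Gmfg passed the filter only through its Positive libraries, where it is high. Coro1a over Coro1b (0.13 ± 0.09) and Fmnl1 over Fmnl2 (0.75 ± 0.17) had the smallest differences of the 16, and in Input Coro1a and Fmnl1 already made up 66.6% and 81.2% of their pairs.

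The order of the members by reads per kb was compared between fractions as a description. In Input it ran Wasf1 (1953 reads per kb), Nckap1 (1741), Arpc1a (1519), Wasl (452), Arpc1b (96.1), Wasf2 (61), Nckap1l (31.3), Dock8 (10.2), Dock2 (8.54) and Was (6.33). Of these neighbours only Wasf1 and Nckap1 had overlapping libraries. In Positive, Wasf1 (1918), Nckap1 (1787) and Arpc1a (1746) remained on top and overlapped in turn. Nckap1l (731), Arpc1b (611), Wasl (452) and Wasf2 (394) followed, and each overlapped the next, as did Was (242), Dock8 (192) and Dock2 (170). The libraries of Arpc1a did not overlap those of Nckap1l, nor those of Wasf2 those of Was. With the length of all exons in place of the transcript, Was and Dock2 changed places in Input, and Wasl and Wasf2 in Positive.

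Nckap1l and Arpc1b thus stood below Wasl in Input and above it in Positive by their means. Summed over the 10 members, the blood-lineage forms made up 2.60% ± 0.28 of the reads per kb in Input and 23.6% ± 4.97 in Positive (SD, n = 3). The Positive shares were 24.5%, 28.1% and 18.3% in animals 201, 207 and 208, each above the Input shares of 2.29% to 2.85%.

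The rest of the pathway was read from 10 lists chosen with earlier results of these data known. Of 82 symbols listed, 80 entered the test. Positive was higher for 39 and lower for 8, with 33 not called and a median log2 fold change of 0.28. Some of the 39, among them Btk and Gmfg, passed the filter only through Positive, which favoured this direction. The corresponding shares of all genes tested were 24% higher and 22% lower. Under total count scaling the split of the 80 was 37 higher and 13 lower, and that of all genes was 3048 higher and 4281 lower, against 3684 and 3370. When the animal was added as a replicate block, 40 rose and 9 fell, since Arpc5 (0.23, edgeR adjusted p 0.0233) and Fnbp1l (-0.32, 0.0123) passed.

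**Figure D4:**
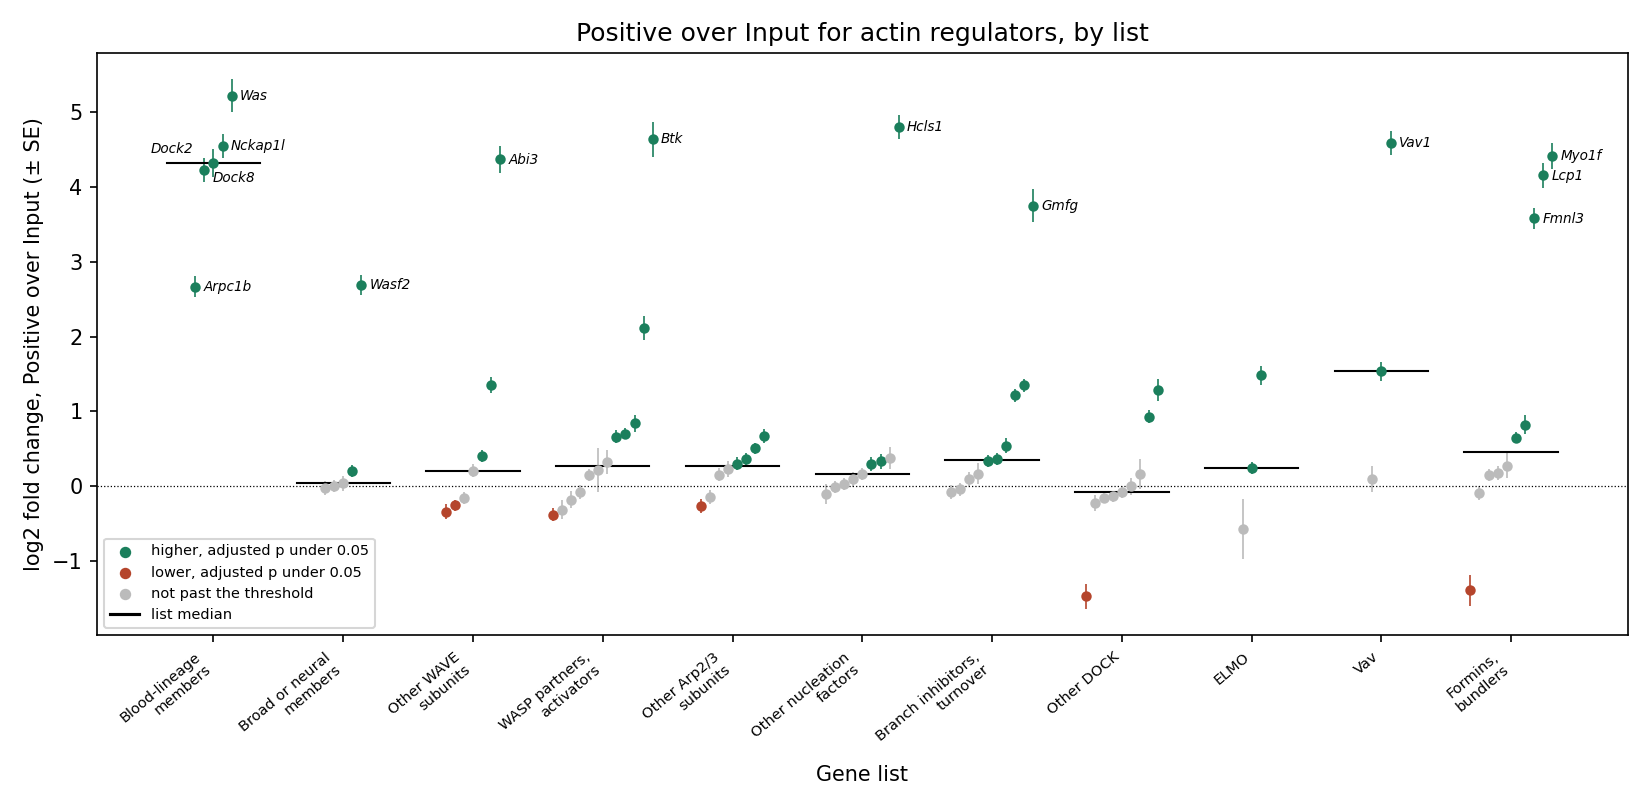
Log2 fold change of Positive over Input (± SE) for the members and for 9 pathway lists, with green points higher, red points lower and grey points not past an edgeR adjusted p of 0.05, and a bar at each list's median. Genes over 5-fold higher are named, and 6 of the 9 pathway lists hold 1 to 3 of them.

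Members and relatives of the WAVE complex numbered 11, of which 5 were higher, 2 lower and 4 not called. The shares of all genes tested were 24% higher and 22% lower. Beside Wasf2 and Nckap1l, the higher genes were Abi3 (4.37), Cyfip1 (1.35) and Abi1 (0.40), which encode adaptor and RAC-binding subunits. Cyfip2, the relative of Cyfip1 that is abundant in neurons, had 0.20 with an edgeR adjusted p of 0.0708, and passed with DESeq2 (0.20, DESeq2 adjusted p 0.0363). Abi2 (-0.34) and Wasf3 (-0.26) were lower. The call of Abi2 was lost without the Input library of animal 207 or 208 (-0.31 in each, edgeR adjusted p 0.0535 and 0.0556) and with limma (-0.36, limma adjusted p 0.0531). That of Wasf3 was lost without the Input library of animal 207 or 208 or the Positive library of animal 201 (-0.23, -0.26 and -0.21, edgeR adjusted p 0.0677, 0.0535 and 0.0587).

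The Arp2/3 complex itself moved little apart from Arpc1b. Of its 10 genes 6 were higher, 1 lower and 3 not called, beside 24% higher and 22% lower of all genes tested. The next largest changes after Arpc1b were 0.67 for Arpc3 and 0.51 for Arpc2. Actr2, which encodes ARP2, was higher by 0.30, and its call was lost without the Input library of animal 201 (0.25, edgeR adjusted p 0.0666) and with limma (0.28, limma adjusted p 0.0657). Arpc5l was lower, at -0.27, and its call was lost without the Input library of animal 207 or 208 or the Positive library of animal 201 or 207 (-0.24 to -0.22, edgeR adjusted p 0.102 to 0.141) and with limma (-0.28, limma adjusted p 0.0973). The median of the 8 genes other than Arpc1a and Arpc1b was 0.27.

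Of 11 DOCK genes, 4 were higher, 1 lower and 6 not called. Among all genes tested 46% were called, a share close to that of these 11. The higher genes other than Dock2 and Dock8 were Dock11 (1.28) and Dock10 (0.93), and Dock5 was lower, at -1.47. Among the partners of DOCK proteins, Elmo1 rose by 1.48 and Elmo2 by 0.25. The call of Elmo2 was lost under total count scaling (0.17, edgeR adjusted p 0.0844) and without the Input library of animal 207 or 208 (0.21 and 0.25, edgeR adjusted p 0.10 and 0.0731), and with limma (0.23, limma adjusted p 0.0874).

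Upstream of WASP, 5 of 12 partners and activators were higher and 1 lower, beside 24% and 22% of all genes tested. Btk, a kinase that phosphorylates WASP, rose by 4.64, Wipf1, which encodes the WASP chaperone WIP, by 2.11, and Cdc42 by 0.66. Btk had 16.8 to 19.8 scaled reads in Input and passed the filter only through Positive, where it is high. The filter thus favoured this direction for Btk, which is in the count of 5. Fnbp1 was lower, at -0.38. The Vav exchange factors Vav1 (4.58) and Vav2 (1.53) were higher and Vav3 was at 0.10 with an edgeR adjusted p of 0.662.

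Downstream and beside the complex, 6 of 10 inhibitors and turnover factors of branches were higher and none of the 10 lower. Across all genes tested 24% were higher and 22% lower, which stands beside each count in this paragraph. Gmfg, a debranching factor of leukocytes, rose by 3.75, Coro1a by 1.35 and Coro1b by 1.21. Gmfg had 15.0 to 20.7 scaled reads in Input and passed the filter only through Positive, where it is high. The filter thus favoured this direction for Gmfg, which is in the count of 6. Of 9 other nucleation promoting factors 3 were higher, Hcls1 (4.80), Washc5 (0.34) and Washc1 (0.29). The call of Washc5 was lost without the Input library of animal 207 (0.27, edgeR adjusted p 0.0787). That of Washc1 was lost under total count scaling (0.21, edgeR adjusted p 0.0785) and without the Input library of animal 201 or 208 or the Positive library of animal 201 or 207 (edgeR adjusted p 0.076, 0.0803, 0.054 and 0.0727). With limma Washc1 had 0.28 and a limma adjusted p of 0.0528. Of 10 formins and bundling proteins 5 were higher and 1 lower, among them Myo1f (4.41), Lcp1 (4.15), which encodes L-plastin, and Fmnl1 (0.65), whereas Pls1, which encodes an epithelial plastin, was at -1.39.

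Genes whose levels followed a blood-lineage form most closely across the 6 libraries were found by the root mean square difference of log2 levels (scaled reads plus 1) centred on each gene's mean, among genes whose mean reached 100 scaled reads. For Nckap1l they were Inpp5d (0.052), Tnfaip8l2 (0.071) and Btk (0.081). For Dock8 they were Slco2b1 (0.046), Cd68 (0.048) and Lcp1 (0.051), and Dock2 was close to Trem2 (0.087) and Hvcn1 (0.089). Arpc1b was nearest to H2-D1 (0.050), which encodes a class I histocompatibility protein, and to the lysosomal genes Hexa (0.074) and Ctsd (0.077). Was had the least close neighbours of the 5, Ly86 (0.158), Ncf4 (0.192) and C1qc (0.211). The 6 libraries differ mainly by fraction, and likeness over them describes a shared difference between fractions only.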

How the data were processed

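RNA was sequenced from the Input and Positive fractions of translating ribosome affinity purification (TRAP) in 3 mice. In Strand NGS the authors removed adapters and trimmed the ends, aligned by strand to mm10, kept genes with over 20 reads in all libraries of at least 1 fraction, and normalized with DESeq. The deposited raw columns hold expected counts (estimated counts), of which 18.5% to 25% per library were whole to within 0.001, and the normalized columns, as deposited, hold log2 values. How the mates of a pair were counted is not given in the sources used here. Summed over the genes of the table, these counts came to 14879734 to 17757918 per library. Reads carried no molecular identifiers, so read numbers speak of counting error only. Groups came from the fraction label, and 0 per-sample columns were left unmapped.

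Expected counts were rounded and tested in edgeR 4.0.16 (quasi-likelihood) under R 4.3.3, with median-of-ratios scaling and without an animal block, since the methods of the study name fraction and treatment as factors for RNA-seq and no animal. Genes needed over 20 scaled reads in the 3 libraries of a fraction, and 44 were dropped and 15344 tested. Benjamini-Hochberg adjustment ran over all genes tested, with a threshold of 0.05. The labels say that libraries with the same number come from the same animal, and the correlations of their deviations from the fraction means were 0.19, 0.06 and 0.12. A blocked fit and DESeq2 1.42.0 were among the alternatives, and limma 3.58.1 on the deposited log2 values was added after the data had been seen. Pair ratios used a pseudocount of 1. The method was tested on simulated data.

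The members and the gene lists were chosen with earlier results of these data known. Named genes are all members, every gene of the 16 pairs, up to 4 called genes at the ends of each pathway list, and 3 nearest neighbours of each blood-lineage form. Genes named as changing their call under the block or as absent markers were chosen after their values were seen, as was Vav3. The listed symbols Toca1 and Wash1 are older names of Fnbp1l and Washc1 and were not counted again. Values of a few genes and of 1 pathway list that this rule takes are not reported here. The unbound fraction was not analysed here.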

Additional observations from a re-analysis of the deposited data

How the results depend on the processing

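All 5 blood-lineage forms and Wasf2 kept direction and call under the 13 alternative settings, with log2 fold changes of 5.09 to 5.42 for Was, 4.37 to 4.69 for Nckap1l, 2.52 to 2.82 for Arpc1b, 4.13 to 4.49 for Dock2, 4.06 to 4.35 for Dock8 and 2.52 to 2.82 for Wasf2. The count of broad or neural paralogs called was 1 under total count scaling, with DESeq2 and with limma, and 1 to 2 with single libraries left out, through Arpc1a. Of all genes, 5541 to 7567 were called. The 16 pairs kept their direction in all 160 recomputed values. The paired fit, with the animal as a replicate block, gave 7567 genes and log2 fold changes of 5.23 for Was and 0.20 for Arpc1a (edgeR adjusted p 0.0417). Among members and pathway genes the block changed no call other than those of Arpc5 and Fnbp1l. Read numbers limit Was most, with 10.7 to 17.8 reads in Input.

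No value that changed sign was past the threshold in the fit where it did, and the cause was not tested. Wasl was 0.00199 and Dock1 0.00133 under TMM scaling, Dock1 0.000942 under the block, and Nckap1 -0.0402 and Washc2 -0.046 under total count scaling. With each library left out in turn, the log2 fold changes ran from -0.052 to 0.049 for Wasl, -0.122 to 0.021 for Wasf1, -0.053 to 0.091 for Nckap1, -0.030 to 0.450 for Pstpip1, -0.199 to 0.00359 for Whamm, -0.082 to 0.037 for Cttn, -0.101 to 0.040 for Gmfb, -0.138 to 0.0092 for Pick1, -0.075 to 0.065 for Dock1 and -0.068 to 0.395 for Dock6. Dock6 passed the threshold only without the Positive library of animal 208 (0.40, edgeR adjusted p 0.0204).

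Under total count scaling, which lowers Positive against Input, list medians moved to 0.19 for Arp2/3 subunits, 0.087 for other nucleation promoting factors, 0.27 for branch inhibitors, -0.15 for other DOCK genes, 0.17 for ELMO genes and 0.38 for formins and bundling proteins. With at least 100 scaled reads, which leaves fewer ELMO genes, that median was 0.86. With each library left out in turn the medians were 0.21 to 0.45 for WASP partners, highest without the Positive library of animal 208, 0.21 to 0.35 for Arp2/3 subunits and -0.13 to -0.011 for other DOCK genes, nearest 0 without the Positive library of animal 207. Among pathway genes, 29 recomputed values lost and 16 gained a call.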
